A study of Mus musculus with 35 samples.

Results

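Regulatory T cells (Tregs) of visceral adipose tissue (VAT) were set against Tregs of the spleen in the middle of the light phase, at ZT4 and ZT8 (Zeitgeber time, ZT, counts the hours from lights on). The members were chosen by their labels alone: the count columns of VAT at ZT4 and ZT8, 6 libraries, and those of spleen at the same times, also 6, which makes 12 of the 35 libraries in the series. Each of the 4 groups, VAT at ZT4, VAT at ZT8, spleen at ZT4 and spleen at ZT8, had 3 libraries, labelled with the letters B, C and D. A further 23 libraries (11 of VAT and 12 of spleen, at ZT0, ZT12, ZT16 and ZT20) served only to ask whether the tissue difference of stress genes in the mid light phase departs from that at the other times. All groups shared the same background: untreated male wild-type C57BL/6 mice, retired breeders over 35 weeks old, housed with light and dark phases of 12 h each. Each library came from 1000 CD4+ CD25+ cells sorted in succession by flow cytometry. No transgene, deletion or agent is named in the labels. Whether the replicates are separate animals is not stated, so the p-values measure the spread between these libraries, which may be technical. Handling of the cells was not varied within a tissue, so tissue and handling cannot be told apart for any gene.

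Tregs restrain immune responses and are defined by the transcription factor Foxp3. Those that reside in fat of male mice depend on the nuclear receptor gene Pparg and the alarmin receptor gene Il1rl1 and differ widely in transcription from Tregs of lymphoid organs. Stress genes are a set of fast programs that many cells share: immediate early transcription factors of the AP-1, Egr and Nr4a families, chaperones driven by heat shock factors, the unfolded protein and integrated stress responses, and feedback inhibitors of kinase and NF-kB signalling. Several of these programs follow the daily cycle of body temperature, feeding and glucocorticoids in rodents, which rest in the light.

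The mid light libraries held 2178238 to 4488705 counts in VAT (median 3865027) and 2069319 to 5059032 counts in spleen (median 3546772). Over the 12 pairs of libraries within a group the chi-square statistic per gene was 4.1 to 11.9, so none agreed within sampling noise. The 20 most abundant genes took 15.1 to 17.4% of counts in VAT and 10.4 to 12.1% in spleen. Mitochondrial genes took 0.94 to 1.2% in VAT and 1.4 to 1.9% in spleen in mid light, without overlap, and 0.88 to 1.9% in VAT and 1.3 to 2.2% in spleen at the other times. The part of these shares in the results was not tested. Levels below are CPM (counts scaled to library size, with TMM factors over all 35 libraries). Tissue differences are log2 fold changes ± SE from a fit of the 12 mid light libraries with time as a covariate, which has its own scaling factors. All adjusted p-values come from edgeR's quasi-likelihood test with Benjamini-Hochberg adjustment over all genes tested, and a call is an adjusted p under 0.05. Of the sort markers, Foxp3 was at 627 to 808 CPM in VAT (median 721) and 431 to 564 CPM in spleen (median 468). Cd4 was at 471 to 569 CPM in VAT and 390 to 445 CPM in spleen, and Il2ra, which encodes CD25, at 551 to 851 CPM in VAT and 311 to 359 CPM in spleen. All 3 were thus present in every library of both tissues. The summed level of 6 B cell markers was 93.9 to 243 CPM in VAT and 1200 to 1826 CPM in spleen, most of it Ighm, and that of 6 macrophage or monocyte markers 7.02 to 13.8 CPM in VAT and 37.0 to 84.1 CPM in spleen. The 8 stromal or mesothelial markers summed to 161 to 221 CPM in VAT and 19.1 to 52.6 CPM in spleen, led by Gsn, and the 5 neutrophil markers to 249 to 557 CPM in VAT and 5.44 to 16.9 CPM in spleen, nearly all from Mmp9. The 4 endothelial markers summed to 23.2 to 45.3 CPM in VAT and 235 to 295 CPM in spleen, nearly all from Pecam1, and the 5 adipocyte markers to 3.63 to 19.8 CPM in VAT and 17.3 to 33.3 CPM in spleen, nearly all from Lipe. The 4 conventional CD4 T cell markers, led by Cd40lg, summed to 18.8 to 82.2 CPM in VAT and 13.6 to 27.4 CPM in spleen, and the 5 markers of NK cells or ILCs to 13.4 to 49.6 CPM in VAT, led by Il5, and 1.80 to 4.57 CPM in spleen. The 5 plasma cell markers, nearly all from Xbp1, summed to 216 to 290 CPM in VAT and 121 to 153 CPM in spleen, and the 4 erythroid markers to 0.831 to 4.94 CPM in VAT and 3.95 to 13.3 CPM in spleen. The sums of CD8 T cell markers (1.76 to 22.7 CPM in VAT and 6.36 to 13.8 CPM in spleen) and of dendritic cell markers (15.5 to 31.6 CPM in VAT and 11.9 to 26.3 CPM in spleen) overlapped between the tissues. In VAT, 1 of the 6 macrophage, 1 of the 5 neutrophil and 2 of the 5 adipocyte markers were at 0 in all 6 libraries, and in spleen 4 of the 5 neutrophil markers were. The sums of conventional CD4 T cell, adipocyte and erythroid markers overlapped in part as well. The remaining sums moved with tissue without overlap. The part of any of these sums in the results was not tested.

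VAT and spleen Tregs differed widely in the mid light phase. Of 13153 genes tested, 6241 (47.4%) were called, 3119 higher (23.7%) and 3122 lower (23.7%) in VAT. In bulk libraries, fewer cells of a type and less RNA per cell cannot be told apart. All 6 VAT libraries lay above all 6 spleen libraries for 1968 genes (15%) and below them for 1619 (12.3%). When only library totals were used for scaling, 2051 were higher and 5733 lower, and the median of the log2 fold changes moved to -0.40, against -0.06 with TMM factors, so small differences are relative to the scaling.

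Several of the genes furthest above spleen are stress genes. Atf3, a stress-induced transcription factor gene (chromosome 1, 191170296 to 191218039), was at 503, 863 and 964 CPM (lowest, median and highest library) in VAT and at 0, 0.0864 and 0.830 CPM in spleen, a log2 fold change of 11.48 ± 0.29 (adjusted p = 1.4e-14). The same 3 values for Cxcl2, a neutrophil-attracting chemokine, were 594, 867 and 947 CPM in VAT and 0, 0 and 1.99 CPM in spleen, 10.68 ± 0.42 (adjusted p = 1.1e-09). Areg, the gene of the growth factor amphiregulin, was at 2024, 2348 and 2728 CPM in VAT and at 0.199, 2.13 and 7.55 CPM in spleen (9.88 ± 0.37). None of these groups overlap, and the spleen libraries lie at or near 0, so that 1 library can set the size: without spleen ZT8 replicate C the log2 fold change of Cxcl2 was 13.16, and without spleen ZT8 replicate D that of Atf3 was 12.17. Where a tissue had 0 counts, the floor of 3 counts over its 6 libraries sets a bound: the chemokine gene Cxcl1 was at least 285-fold, Gm5979 at least 288-fold and Jcad at least 251-fold higher in VAT. AA467197 had 1 count in spleen, a ratio of 7708 (95% interval 1383 to 304508), and Kcna4, a potassium channel gene, had 3, a ratio of 732 (250.2 to 3555). Both intervals and bounds cover counting error only.

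The genes furthest below spleen were of other kinds. The amino acid transporter gene Slc7a10 had no count in VAT and was at least 78.2-fold lower there, with 4.70 to 19.5 CPM in spleen. Gm28942 and Ighd, the gene of the immunoglobulin D heavy chain, had 1 count each in VAT, ratios of spleen over VAT of 268 (47.8 to 10633) and 296 (52.8 to 11715). Ighd is a B cell gene, and the B cell marker sum given above was also lower in VAT. Treml2 was at 0, 0.146 and 1.75 CPM in VAT and at 63.5, 81.4 and 89.3 CPM in spleen (-6.82 ± 0.36, adjusted p = 1.5e-11). Dtx1, which acts in Notch signalling, was at 0, 0.613 and 1.76 CPM in VAT and at 38.5, 82.6 and 114 CPM in spleen (-6.77 ± 0.33). Nsg2, Prag1, St8sia1, which encodes a ganglioside synthase, Gm14125 and Slc28a2b had log2 fold changes of -6.85 to -6.40, and for each the tissues did not overlap. The sizes rest on few counts in VAT: without VAT ZT4 replicate D those of Treml2, St8sia1 and Slc28a2b were -7.56, -7.26 and -7.13, and without VAT ZT8 replicate C those of Prag1 and Gm14125 were -7.59 and -7.68. Slc28a2b has a close copy between which reads can be split, so its level is uncertain.

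Immediate early genes formed the most unequal stress list. Of 25 listed, 23 passed the filter on low counts, 21 were higher and 1 lower in VAT, with a median log2 fold change of 4.50 against -0.06 over all genes tested. Among all genes, 23.7% were higher and 23.7% lower. Fos, an AP-1 subunit (chromosome 12, 85473890 to 85477273), was at 5122, 5462 and 7791 CPM in VAT and at 5.39, 7.41 and 16.3 CPM in spleen, 9.32 ± 0.28 (adjusted p = 9.1e-11). Junb, another AP-1 subunit (chromosome 8, 84974484 to 84978718), was at 17172, 19098 and 19500 CPM in VAT and at 258, 274 and 394 CPM in spleen, 6.02 ± 0.10 (adjusted p = 9.4e-20). Fosb was at 563, 824 and 1020 CPM in VAT and at 0, 0.415 and 2.12 CPM in spleen (10.22 ± 0.35). In all 3 genes the tissues stand far apart with no overlap, and the 6 VAT libraries of Junb differ little among themselves. Jun reached 949, 1027 and 1154 CPM in VAT and 20.1, 26.4 and 69.1 CPM in spleen (4.99 ± 0.25, adjusted p = 7.5e-09). Egr1, a zinc finger transcription factor gene, reached 521, 985 and 1039 CPM in VAT and 27.6, 39.9 and 51.5 CPM in spleen (4.50 ± 0.17). The orphan nuclear receptor genes Nr4a1, Nr4a2 and Nr4a3, which follow T cell receptor signals, were higher in VAT by 6.31 ± 0.27, 6.28 ± 0.35 and 5.42 ± 0.17. Egr2, another zinc finger gene, was the member that was lower in VAT, at 8.21, 24.7 and 25.5 CPM there and 21.3, 34.6 and 38.8 CPM in spleen (-0.56 ± 0.21, adjusted p = 0.038), with overlapping groups. Klf2 was not called, at 11.6 to 24.5 CPM in VAT and 16.1 to 23.2 CPM in spleen (-0.16 ± 0.20, adjusted p = 0.55).

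**Figure D1:**
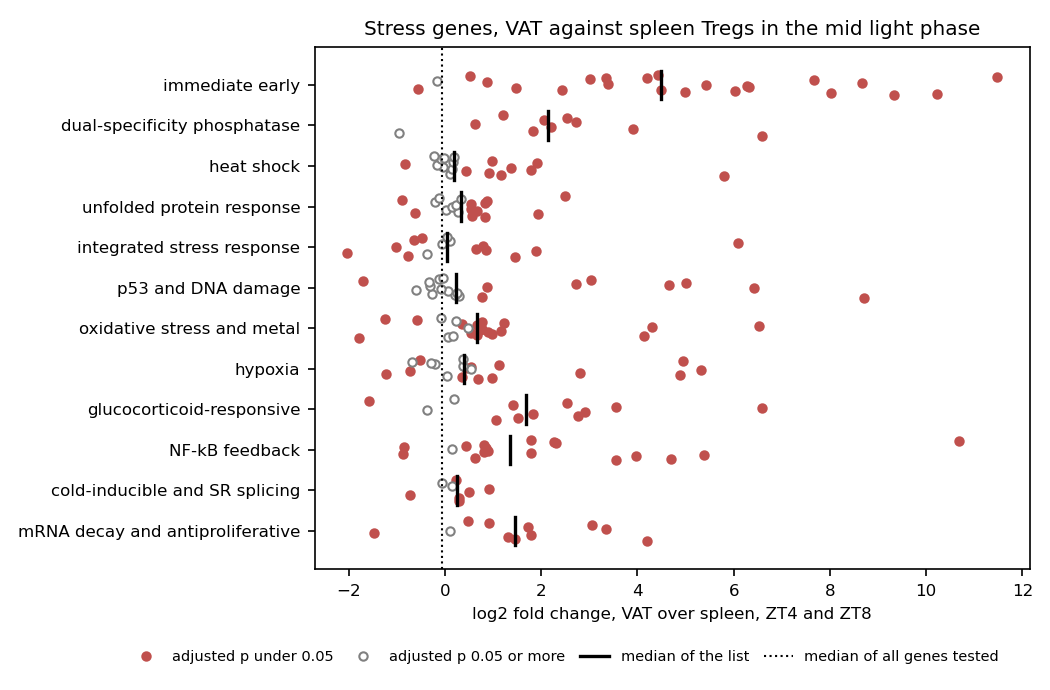
Log2 fold change of VAT over spleen at ZT4 and ZT8 (horizontal axis) for the tested members of 12 stress lists (rows), filled where the adjusted p was under 0.05, with each list's median as a bar and the median of all 13153 genes tested as a dotted line. Immediate early genes reach furthest to the right (median 4.50), while heat shock and integrated stress response members lie on both sides of the dotted line (medians 0.18 and 0.05).

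Inhibitors of kinase and NF-kB signalling were also high in VAT. Of 10 dual-specificity phosphatase genes, which switch off MAP kinases, 9 were higher and 0 lower, with a median of 2.13. Beside this and the next 2 lists, 23.7% of all genes were higher and 23.7% lower. Dusp1 (chromosome 17, 26505590 to 26562128) was at 5652, 6350 and 7519 CPM in VAT and at 54.4, 65.8 and 80.5 CPM in spleen, 6.59 ± 0.09 (adjusted p = 3.4e-21). Dusp5 and Dusp6, both phosphatases of ERK, were higher by 3.91 ± 0.20 and 2.20 ± 0.11. Dusp2 was the exception, with 13.8 to 240 CPM in VAT and 29.8 to 380 CPM in spleen (-0.97 ± 0.72, adjusted p = 0.31), and the groups overlap. Of 18 NF-kB feedback genes, 15 were higher and 2 lower, median 1.34. Nfkbia, the inhibitor that holds NF-kB in the cytoplasm, was at 6599, 7238 and 8206 CPM in VAT and at 550, 623 and 720 CPM in spleen (3.55 ± 0.08, adjusted p = 8.8e-18). Tnfaip3, the gene of the deubiquitinase A20, was at 3124, 5781 and 7706 CPM in VAT and at 61.0, 138 and 184 CPM in spleen (5.37 ± 0.34). Both are apart in every library. Tnip1, a partner of A20, and the NF-kB subunit gene Relb were lower in VAT (-0.87 ± 0.11 and -0.85 ± 0.11). Of 11 mRNA decay and antiproliferative genes, 9 were higher and 1 lower, median 1.45. They were led by Zfp36, an mRNA-destabilizing zinc finger protein that is also in the immediate early list, at 450, 567 and 634 CPM in VAT and 28.2, 30.6 and 33.2 CPM in spleen (4.20 ± 0.10). The RNase gene Zc3h12d was lower in VAT (-1.48 ± 0.13).

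Chaperone genes differed much less. Of 23 heat shock genes, 18 passed the filter, 8 were higher and 1 lower in VAT, with a median of 0.18. Among all genes tested 47.4% were called, 23.7% higher and 23.7% lower. Hspa8, the constitutive cytosolic Hsp70 (chromosome 9, 40800984 to 40810087), was at 1347, 1610 and 1957 CPM in VAT and at 570, 763 and 806 CPM in spleen, 1.16 ± 0.10 (adjusted p = 4.1e-09). Its J-domain partners Dnaja1 and Dnajb1 were higher too. Dnaja1 was at 402, 480 and 554 CPM in VAT and 112, 147 and 153 CPM in spleen (1.79 ± 0.10, adjusted p = 1.2e-11). Dnajb1 was at 202, 206 and 269 CPM in VAT and 59.4, 83.8 and 110 CPM in spleen (1.37 ± 0.12). For these 3 genes every VAT library is above every spleen library. Hsp90ab1, the constitutive cytosolic Hsp90 (chromosome 17, 45567775 to 45573271), was at 1749, 2036 and 2352 CPM in VAT and at 1373, 1529 and 1678 CPM in spleen, 0.43 ± 0.08 (adjusted p = 8.3e-05), also without overlap but by far less. The inducible gene Hspa1a was at 2.27, 6.05 and 13.3 CPM in VAT and 0, 0 and 0.848 CPM in spleen (5.80 ± 0.80). Hspa1b, its near-identical copy, did not pass the filter, and reads can be split between the pair, so both levels are uncertain. The Hsp90 co-chaperone genes Fkbp4, Stip1 and Ahsa1 were not called (-0.08 ± 0.11, -0.03 ± 0.13 and 0.19 ± 0.14), and their groups overlapped. Hspe1, the mitochondrial co-chaperonin, was lower in VAT, at 13.9 to 27.1 CPM there and 32.0 to 50.7 CPM in spleen (-0.82 ± 0.18, adjusted p = 0.0006).

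In the endoplasmic reticulum, 10 of 19 unfolded protein response genes were higher and 2 lower in VAT, median 0.33. Beside this and the integrated stress response list, 23.7% of all genes were higher and 23.7% lower. Hspa5, the lumenal Hsp70, was at 1015, 1205 and 1289 CPM in VAT and 601, 641 and 790 CPM in spleen (0.84 ± 0.07, adjusted p = 3.5e-09). Atf6, the membrane-bound sensor, was at 120, 140 and 175 CPM in VAT and 15.9, 24.8 and 36.5 CPM in spleen (2.50 ± 0.16). Edem1, a factor of degradation, and Dnajc3, a chaperone, were lower in VAT (-0.89 ± 0.15 and -0.63 ± 0.09). The integrated stress response was split. Of 21 genes, 15 passed the filter, 6 were higher and 5 lower, median 0.05. Ppp1r15a, the phosphatase subunit that ends the response (chromosome 7, 45522916 to 45526268), was at 2207, 2333 and 2557 CPM in VAT and at 23.5, 35.3 and 43.5 CPM in spleen, 6.09 ± 0.13 (adjusted p = 1.1e-17). Its transcriptional activator Atf4 was at 259, 302 and 356 CPM in VAT and 103, 109 and 127 CPM in spleen (1.45 ± 0.09), and Asns, the asparagine synthetase gene, was higher by 1.88 ± 0.32. Ddit3, Trib3, the serine synthesis gene Phgdh and the mitochondrial folate genes Mthfd2 and Shmt2 were lower in VAT, by log2 fold changes of -2.03 (Trib3) to -0.48 (Shmt2), and their groups overlapped except those of Phgdh. Phgdh was at 33.7 to 56.5 CPM in VAT and 71.8 to 89.8 CPM in spleen.

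Of 20 p53 and DNA damage genes that passed the filter, of 21 listed, 8 were higher and 1 lower, median 0.23. For this and the lists that follow, 47.4% of all genes were called, 23.7% higher and 23.7% lower. Cdkn1a, the cell cycle inhibitor p21, was at 322, 354 and 416 CPM in VAT and 0, 0.842 and 2.55 CPM in spleen (8.70 ± 0.24, adjusted p = 6.1e-16). Gadd45b was at 2476, 2761 and 3073 CPM in VAT and 26.8, 31.7 and 37.0 CPM in spleen (6.43 ± 0.10), and Pmaip1, a pro-apoptotic BH3-only gene, was higher by 5.01 ± 0.17. Fas, the death receptor gene, was lower in VAT, at 23.3 to 46.5 CPM there and 74.1 to 108 CPM in spleen (-1.71 ± 0.16). Other p53 targets such as Bax, Ccng1 and Sesn1 were not called (0.21 ± 0.15, 0.25 ± 0.11 and 0.05 ± 0.08). Of 24 oxidative stress and metal genes, 22 passed the filter, 14 were higher and 3 lower, median 0.66. The metallothionein gene Mt1 was at 12.0, 13.5 and 20.4 CPM in VAT and 0, 0.437 and 1.90 CPM in spleen (4.31 ± 0.46, and 5.25 without spleen ZT4 replicate C), and Sqstm1, the autophagy receptor p62, was higher by 1.17 ± 0.07. Hmox1, the heme oxygenase gene, was lower in VAT, at 4.68 to 9.07 CPM there and 11.1 to 41.6 CPM in spleen (-1.79 ± 0.28). It is also a macrophage gene, and the macrophage marker sum given above was lower in VAT, whose part was not tested. Of 22 hypoxia genes, 20 passed the filter, 10 were higher and 3 lower, median 0.40. Hilpda, a lipid droplet protein, was at 393, 507 and 595 CPM in VAT and 11.5, 14.6 and 22.1 CPM in spleen (4.94 ± 0.17), and the oxygen sensor gene Egln3 was higher by 4.89 ± 0.26. The pyruvate dehydrogenase kinase gene Pdk1 was lower in VAT (-1.23 ± 0.13), and Pgk1 and Eno1, both of glycolysis, were not called (0.37 ± 0.16 and -0.20 ± 0.10). Of 13 glucocorticoid-responsive genes, 12 passed the filter, 9 were higher and 1, Pik3ip1, lower, median 1.67. Tsc22d3, known as GILZ, was at 569, 785 and 813 CPM in VAT and 299, 333 and 478 CPM in spleen (1.05 ± 0.10), and the clock gene Per1 was higher by 2.76 ± 0.13. Of 8 cold-inducible and SR splicing genes, 5 were higher and 1 lower, median 0.26. Rbm3, a cold-inducible RNA-binding protein, was at 236, 248 and 279 CPM in VAT and 193, 205 and 221 CPM in spleen (0.29 ± 0.08, adjusted p = 0.0041), a difference that turned to -0.06 with library totals. Over the union of the 12 lists, 190 of 208 genes passed the filter, 119 were higher and 21 lower, median 0.70.

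Beside these, 8 lists give the setting. The shares of all genes to set against their counts are 23.7% higher and 23.7% lower. Of the VAT Treg signature, 21 of 23 tested members were higher and 0 lower, median 4.76, and of lymphoid or resting Treg genes 1 of 15 was higher and 13 lower, median -4.38. The lists were chosen with earlier results of these data known and are no independent evidence of direction. Of interferon response genes 2 of 19 were higher and 15 lower, median -1.29. Of core clock genes 12 of 18 were higher and 2 lower, median 1.06, led by Rora, a nuclear receptor, at 1202, 1289 and 1454 CPM in VAT and 55.1, 75.3 and 90.6 CPM in spleen (4.16 ± 0.11). Of trafficking receptors 12 of 21 were higher and 9 lower, median 0.53, and of Treg core genes 7 of 13 were higher and 6 lower, median 0.59. The chemokine receptor gene Ccr2 was at 2069, 2400 and 2611 CPM in VAT and 7.64, 20.3 and 59.9 CPM in spleen, apart in all libraries. Oxidative phosphorylation was nearly even, with 6 of 22 genes higher and 2 lower, median 0.07, as was sterol and fatty acid synthesis, with 7 of 23 higher and 3 lower, median 0.23.

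The tissue difference itself was next compared between ZT8 and ZT4. No gene was called (0 of 13153, 0%), and 978 (7.44%) had an unadjusted p under 0.05 by edgeR's quasi-likelihood test. DESeq2 was not run on this contrast. The 5 lowest p-values belonged to Xylt2, Gm37653, D030056L22Rik, Pnrc1 and Ctla2a, with Xylt2 first (-3.17, adjusted p = 0.059, and 0.017 to 0.29 when each library was left out in turn). Over the 190 stress genes tested, 2 were higher and 10 lower at an unadjusted p under 0.05, against 3.79% and 3.64% of all genes, with a median difference of -0.07 on the log2 scale, against 0.01 over all genes.

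The difference in mid light, VAT minus spleen, was then set against that at ZT0, ZT12, ZT16 and ZT20 in a fit of all 35 libraries. The departure is the first minus the second, on the log2 scale. No gene was called (0 of 15910, 0%), and 1069 (6.72%) had an unadjusted p under 0.05 by edgeR's quasi-likelihood test, 480 with a positive departure (3.02%) and 589 with a negative one (3.7%). DESeq2 called 6 genes, among them Cyp51, Ppp1r15a, Rac1, Sqle and Trbv31, and had 1117 with an unadjusted p under 0.05. Without the filter on low counts edgeR called 31 of 47525 genes. Among them were 5 stress genes, Ppp1r15a (adjusted p = 1.1e-05), Junb (0.0023), Hspa8 (0.0030), Egr1 (0.019) and, with a negative departure, Pnrc1 (0.021), and 4 sterol genes, Cyp51, Sqle, Msmo1 and Fdft1. The departures below are therefore sizes with errors, whose calls depend on the tool and the filter. Of 199 stress genes tested, 22 had a positive and 14 a negative departure at an unadjusted p under 0.05, with a median of 0.001 against -0.004 over all genes. Heat shock genes held 8 positive and 1 negative of 20 (median 0.24), immediate early genes 6 and 1 of 25 (0.20), unfolded protein response genes 0 and 2 of 19 (-0.05), and oxidative stress and metal genes 1 and 4 of 24 (-0.17). Against ZT16 and ZT20 only, 5 of 20 heat shock and 3 of 25 immediate early genes were positive at the same unadjusted threshold. The share of all genes in that contrast is not given here. The other stress lists held between 0 and 2 positive and between 0 and 3 negative members.

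Ppp1r15a had the lowest p of the stress genes. Its departure was 0.72 ± 0.17 (adjusted p = 0.41). In VAT it was at 2207, 2333 and 2557 CPM in mid light and at 1622, 2388 and 2860 CPM at the other times, and in spleen at 23.5, 35.3 and 43.5 CPM in mid light and 39.7, 53.4 and 88.6 CPM at the other times. The VAT libraries do not separate by time, and in spleen 4 of the 6 mid light libraries lie below all 12 others. Hspa8 had a departure of 0.53 ± 0.14 (adjusted p = 0.44). In VAT it was at 1347, 1610 and 1957 CPM in mid light and 1505, 1837 and 2221 CPM at the other times, and in spleen at 570, 763 and 806 CPM in mid light and 844, 1115 and 1817 CPM at the other times. All 6 mid light spleen libraries are below the 12 others, while those of VAT overlap. Further positive departures were those of Jun (1.24 ± 0.33), Junb (0.43 ± 0.12), Egr1 (0.58 ± 0.18), Btg2 (0.31 ± 0.11), Dnaja1 (0.46 ± 0.15), Dnajb1 (0.56 ± 0.19) and Hsp90ab1 (0.35 ± 0.11), with adjusted p-values of 0.46 to 0.58 with the filter. The genes with the 10 lowest p-values also included Trbv31, a T cell receptor segment (2.32 ± 0.49), Rac1, a small GTPase gene (-1.59 ± 0.34), F730043M19Rik (-0.71 ± 0.17) and Cep85l (-1.30 ± 0.32), beside sterol genes described below. Negative departures of stress genes included Jund, an AP-1 subunit (-1.13 ± 0.35), Dusp2 (-2.21 ± 0.65), Sdf2l1, an endoplasmic reticulum chaperone (-0.73 ± 0.25), and Mt1 (-2.43 ± 0.75, with 0 to 1.90 CPM in spleen in mid light), with adjusted p-values of 0.55 to 0.58.

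**Figure D2:**
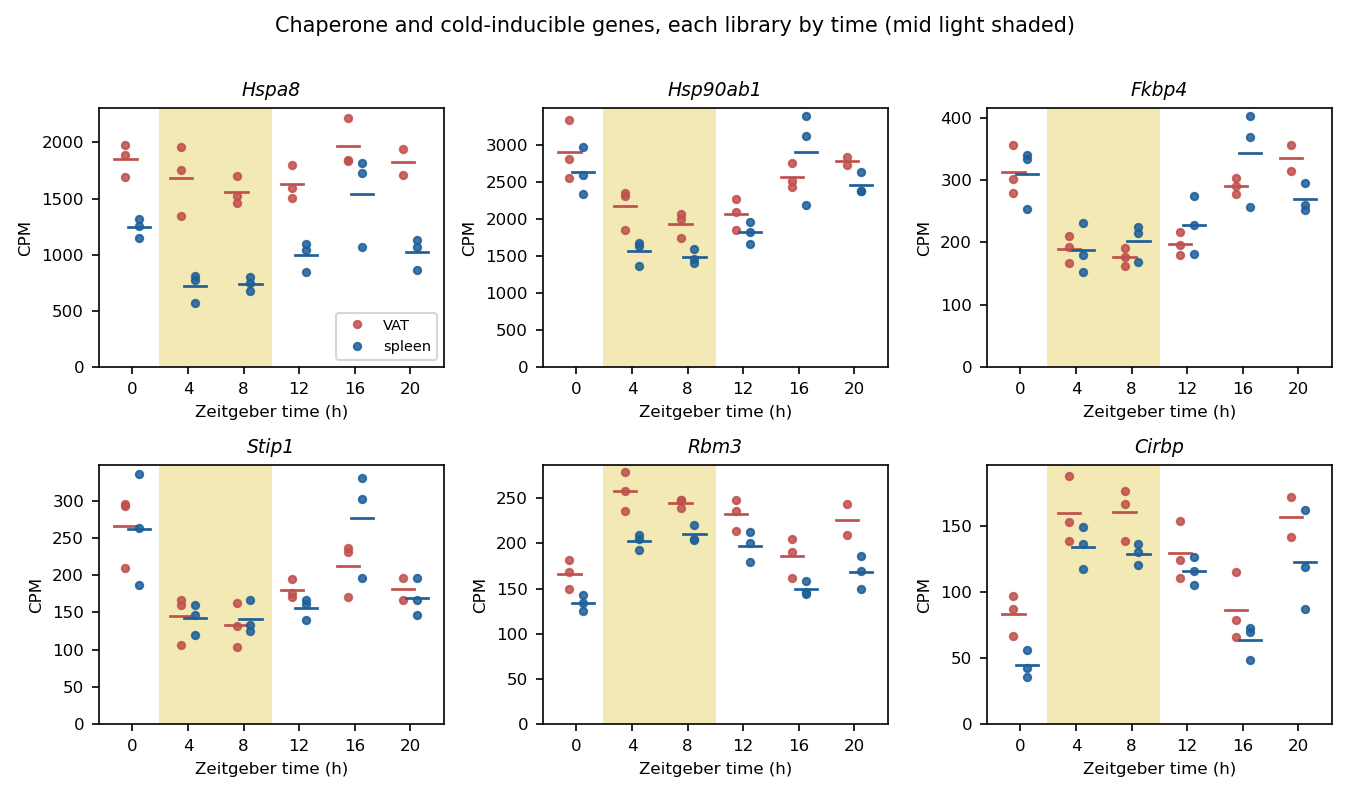
CPM (vertical axis) by Zeitgeber time in hours (horizontal axis) for chaperone and cold-inducible genes, 1 point per library, VAT in red and left of spleen in blue, with the mean of each group as a bar and the mid light times shaded. Hspa8 in spleen is lowest in the shaded times (570 to 806 CPM), Fkbp4 and Stip1 are low there in both tissues, and Rbm3 and Cirbp are high there in both.

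Each tissue was also followed on its own, mid light against the other times. Both comparisons draw on libraries that enter the departure, so they are given side by side and not as separate evidence. In VAT, 3 of 15910 genes were called (0.0189%): Fkbp4 (-0.60 ± 0.10, adjusted p = 0.0093), Rgs1, a regulator of G protein signalling (-0.53 ± 0.09, adjusted p = 0.0059), and Plekhg2 (0.48 ± 0.09, adjusted p = 0.045). In spleen, 209 were called (1.31%), 140 higher (0.88%) and 69 lower (0.434%) in mid light. The VAT call of Fkbp4 was lost without the ZT20 libraries, without VAT ZT4 replicate C and without VAT ZT8 replicate B. The VAT count was 15 without VAT ZT0 replicate C or VAT ZT4 replicate B. The spleen count was 80 without the ZT20 libraries, 82 without spleen ZT4 replicate C, 89 without spleen ZT8 replicate C and 103 without spleen ZT8 replicate D, and 480 without spleen ZT16 replicate A. Among 199 stress genes, 17 of these calls were on the lists in spleen, 7 higher and 10 lower, and 1, Fkbp4, in VAT. Of the 17, 11 were still called without spleen ZT4 replicate C, without spleen ZT8 replicate C or without spleen ZT8 replicate D. Over the 35 fits that each left out 1 library, Gsr lost its call in 12, Jund and Txnrd1 in 10 each, Srsf2 in 8, Hsp90b1 in 4, Stip1 in 3 and Jun in 2, and the other 10 in none.

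The spleen calls that were lower in mid light were chaperones and early response genes. Hspa8 fell by 0.70 ± 0.10 on the log2 scale (adjusted p = 0.00018) and Hsp90ab1 by 0.67 ± 0.08 (adjusted p = 1.2e-05). Hsp90ab1 in spleen was at 1373, 1529 and 1678 CPM in mid light and at 1668, 2382 and 3398 CPM at the other times, and in VAT at 1749, 2036 and 2352 CPM in mid light and 1849, 2554 and 3338 CPM at the other times. In spleen the ranges touch at a single library, while in VAT they overlap widely. In VAT the change of Hsp90ab1 was -0.32 and not called (unadjusted p = 0.00035). Fkbp4, an Hsp90 co-chaperone (chromosome 6, 128429735 to 128438677), fell in spleen by 0.54 ± 0.10 (adjusted p = 0.0037), and its departure was -0.06 ± 0.14. It was at 163, 183 and 211 CPM in VAT in mid light and 180, 291 and 356 CPM in VAT at the other times, and at 152, 197 and 230 CPM in spleen in mid light and 182, 268 and 402 CPM in spleen at the other times. Stip1, which links Hsp70 with Hsp90, fell in spleen by 0.56 ± 0.13 (adjusted p = 0.017), beside -0.58 in VAT, which was not called. In Fkbp4 and Stip1 the fall in mid light was thus of like size in the 2 tissues. Of the 20 heat shock genes, 14 were lower in spleen and 5 in VAT at an unadjusted p under 0.05, against 6.29% and 6.66% of all genes. The difference between those counts was not tested, and no heat shock gene had a called departure with the filter on low counts, while Hspa8 had one without it (0.54, adjusted p = 0.0030).

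The sequence before the start of transcription is shown for this pair, since Fkbp4 and Stip1 fell alike in spleen while only the first holds the motif searched for. Both are the 250 bases upstream of the RefSeq start on GRCm38.p6, 5′ to 3′ on the gene's strand, at chr6:128438657-128438906 and chr19:7040027-7040276, both on the minus strand. Capitals mark GAANNTTC, an inverted pair of heat shock units that reads the same on both strands.
Fkbp4: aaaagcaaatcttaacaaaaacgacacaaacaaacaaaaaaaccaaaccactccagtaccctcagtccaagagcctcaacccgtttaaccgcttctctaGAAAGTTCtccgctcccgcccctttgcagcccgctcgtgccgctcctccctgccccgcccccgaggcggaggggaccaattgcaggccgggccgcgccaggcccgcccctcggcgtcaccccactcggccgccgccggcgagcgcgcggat
Stip1: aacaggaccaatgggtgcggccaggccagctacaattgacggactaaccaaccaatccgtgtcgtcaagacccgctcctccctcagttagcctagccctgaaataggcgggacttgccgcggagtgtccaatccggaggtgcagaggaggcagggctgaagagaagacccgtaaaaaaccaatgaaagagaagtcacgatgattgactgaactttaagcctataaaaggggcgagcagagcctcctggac
The match in Fkbp4 begins 151 bases before the start, and Stip1 holds none. Such a match was present in 6 of the 18 heat shock promoters found in the table, of 23 genes listed (33.3%), and in 1833 of all 27025 promoters (6.78%). Of 21 immediate early promoters found, of 25 listed, none held the AP-1 motif TGANTCA, which was in 1856 of all promoters (6.87%). A match is a description of letters and says nothing of what binds there.

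Among early response genes in spleen, Jun fell by 1.18 ± 0.25 (adjusted p = 0.016), Junb by 0.49 ± 0.08 (adjusted p = 0.0016), Dusp1 by 0.53 ± 0.11 (adjusted p = 0.0071) and Ppp1r15a by 0.71 ± 0.12 (adjusted p = 0.0027). Their changes in VAT were 0.06, -0.06, -0.19 and 0.01 and were not called. Jun in spleen was at 20.1, 22.7 and 29.4 CPM at ZT4 and at 23.5, 39.2 and 69.1 CPM at ZT8, and at ZT20 its libraries were at 16.9, 38.2 and 78.2 CPM. Junb in spleen was at 258 to 278 CPM at ZT4, 268 to 394 CPM at ZT8 and 302 to 511 CPM at the other times. The mid light libraries of Jun thus overlap those of ZT20, and those of Junb overlap the other times through the highest ZT8 library. The chaperone genes of the endoplasmic reticulum Pdia6 and Hsp90b1 fell in spleen by 0.47 ± 0.09 and 0.32 ± 0.08. Of the 17 calls, 7 (Dusp1, Hsp90b1, Jun, Jund, Srsf2, Stip1 and Txnrd1) were lost when the transcript length slope of each library was a covariate, and 6 (Gsr, Hsp90b1, Jund, Pdia6, Srsf2 and Txnrd1) without the ZT20 libraries. The slope is of log2 CPM, minus each gene's mean over the libraries, on log2 transcript length (the gene's merged exons). It is thus relative to the average library. In VAT it was -0.09 to 0.10 in mid light and -0.24 to 0.10 at the other times. In spleen it was -0.05 to 0.11 in mid light and -0.16 to 0.11 at the other times. Both VAT libraries of ZT20 were lowest.

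**Figure D3:**
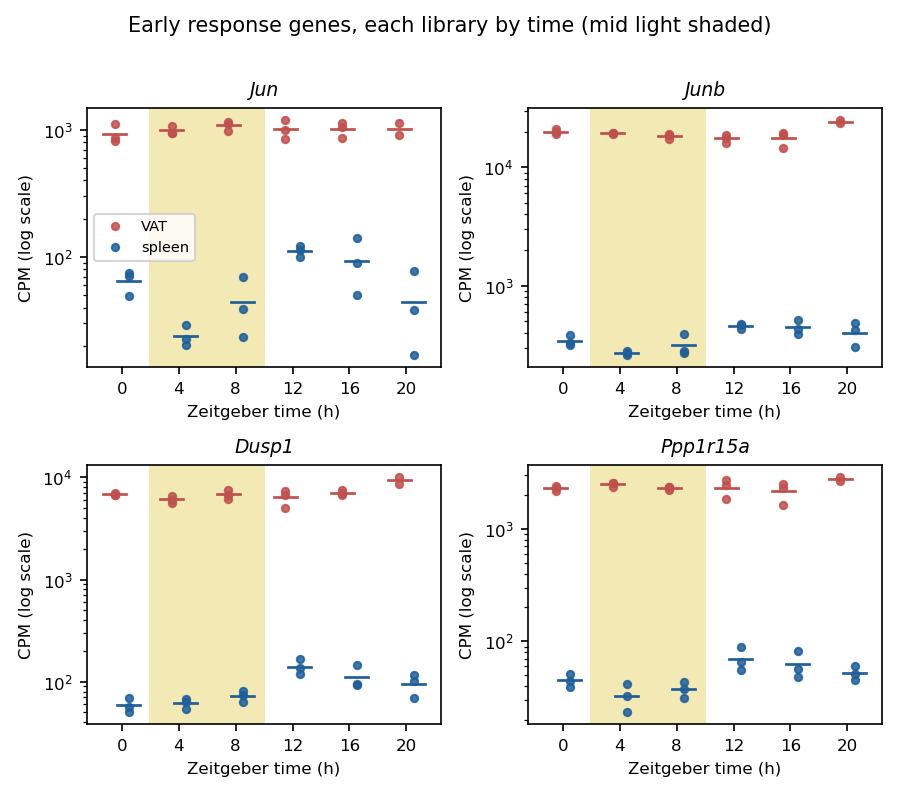
CPM on a log scale (vertical axis) by Zeitgeber time in hours (horizontal axis) for Jun, Junb, Dusp1 and Ppp1r15a, 1 point per library, VAT in red and left of spleen in blue, with group means as bars and the mid light times shaded. VAT libraries have no called change in mid light and are spread over 14635 to 24999 CPM for Junb, while spleen libraries are lower. In spleen, most shaded libraries of Ppp1r15a and all of Junb but the highest at ZT8 lie below the other times. Those of Jun overlap ZT20.

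The calls that rose in spleen in mid light were of several kinds. The cold-inducible genes Cirbp (0.72 ± 0.12, adjusted p = 0.0016) and Rbm3 (0.36 ± 0.07, adjusted p = 0.0052) rose together with the splicing factor gene Srsf2 (0.47 ± 0.12, adjusted p = 0.029). Cirbp was at 139, 160 and 188 CPM in VAT in mid light and 65.8, 111 and 172 CPM in VAT at the other times, and at 117, 133 and 149 CPM in spleen in mid light and 35.7, 80.0 and 163 CPM in spleen at the other times. Its change in VAT was 0.54 and that of Rbm3 0.32 (unadjusted p = 0.00012 and 6.7e-05), neither called. Their departures were -0.18 ± 0.18 and -0.04 ± 0.10. The change in mid light was thus upward in both tissues for both genes. The mid light ranges of Cirbp overlap between the tissues and with the other times, while those of Rbm3 do not overlap between the tissues, as given above. Jund (1.11 ± 0.28), the glutathione reductase gene Gsr (1.01 ± 0.25) and the thioredoxin reductase gene Txnrd1 (0.61 ± 0.15) also rose in spleen. Dusp2 rose by 2.39 ± 0.43 (adjusted p = 0.0052), with 315 to 380 CPM in spleen at ZT8, 29.8 to 220 CPM at ZT4 and 22.1 to 190 CPM at the other times. Its VAT libraries were spread over 13.8 to 240 CPM within mid light alone, and those of Rac1 over 49.7 to 187 CPM.

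**Figure D4:**
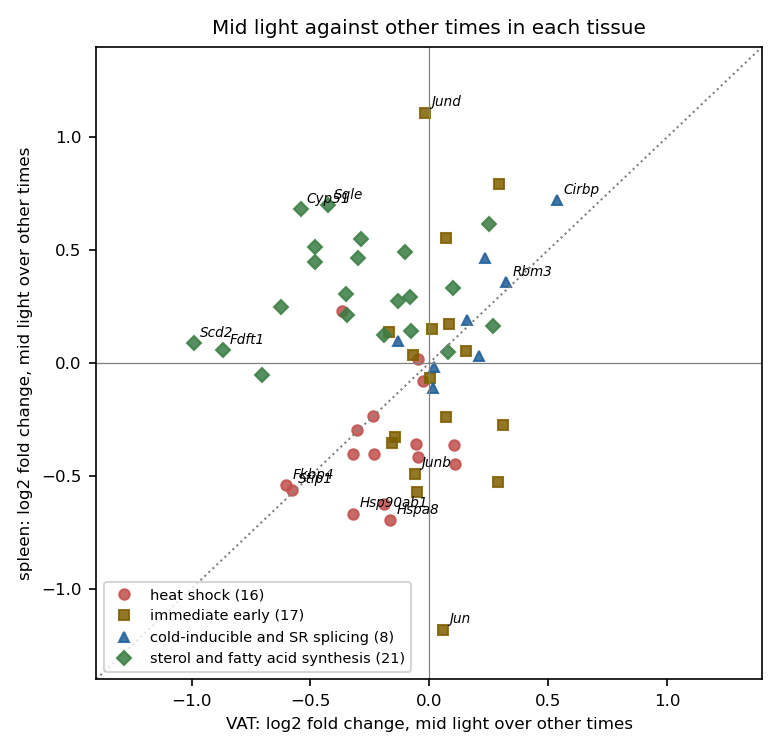
Log2 fold change of mid light over the other times in VAT (horizontal axis) and spleen (vertical axis) for genes of 4 lists (16 heat shock, 17 immediate early, 8 cold-inducible or splicing and 21 sterol genes) with a mean of at least 10 CPM in the higher and 3 CPM in the lower tissue, with the line of equal change dotted and 1 point per gene. Heat shock genes lie mostly below 0 in spleen, Fkbp4 and Stip1 lie near the dotted line, and sterol genes lie mostly left of 0 in VAT and above 0 in spleen.

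The list that departed most was not a stress list. Of 23 sterol and fatty acid synthesis genes tested, 0 had a positive and 14 a negative departure at an unadjusted p under 0.05. Among all genes tested, 3.02% had a positive and 3.7% a negative one. The median departure was -0.66 in the list and -0.004 over all genes. The negative count was 9 against ZT0 and ZT12 only (median -0.48) and 17 against ZT16 and ZT20 only (median -0.92). The shares of all genes in those contrasts are not given here. Whether the change in count is particular to this list was therefore not tested. Cyp51, the lanosterol demethylase gene (chromosome 5, 4081145 to 4104746), had a departure of -1.22 ± 0.22 (adjusted p = 0.058), the lowest p of all genes, with an adjusted p of 0.0034 to 0.27 when each library was left out in turn. It was at 93.7, 101 and 135 CPM in VAT in mid light and 89.3, 168 and 212 CPM in VAT at the other times, and at 75.6, 89.4 and 122 CPM in spleen in mid light and 31.7, 56.0 and 93.5 CPM in spleen at the other times. VAT levels are thus near the low end of their range in mid light and spleen levels near the high end of theirs. Sqle, the squalene epoxidase gene, had a departure of -1.13 ± 0.24 (adjusted p = 0.27), Msmo1, a sterol oxidase gene, -0.87 ± 0.21 (adjusted p = 0.41), Fdft1, the squalene synthase gene, -0.92 ± 0.25 and Fdps, the farnesyl diphosphate synthase gene, -0.99 ± 0.25. At an unadjusted p under 0.05, mid light against the other times had 1 sterol gene higher and 10 lower in VAT (5.47% and 6.66% of all genes; median -0.30), and 10 higher and 0 lower in spleen (6.85% and 6.29%; median 0.31). In spleen, Cyp51 (0.68 ± 0.15, adjusted p = 0.016) and Sqle (0.70 ± 0.17, adjusted p = 0.026) rose in mid light. In VAT no sterol gene was called, and the lowest p was that of Fdft1 (-0.87, unadjusted p = 2.4e-05). Srebf2, the transcription factor gene of the pathway, had a departure of -0.37 ± 0.13, and Srebf1 one of 0.10 ± 0.17. In mid light itself Cyp51 and Sqle did not differ by a call between the tissues (0.23 ± 0.13 and 0.26 ± 0.13), while Insig1, which retains the SREBP complex, was higher in VAT (1.15 ± 0.12).

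**Figure D5:**
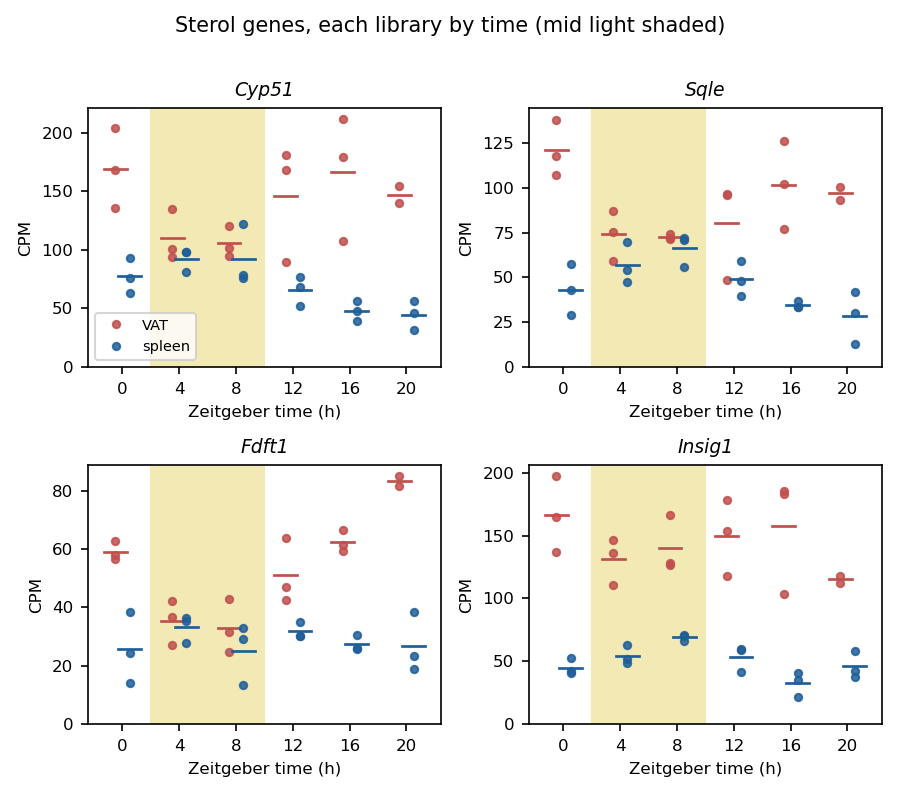
CPM (vertical axis) by Zeitgeber time in hours (horizontal axis) for the sterol genes Cyp51, Sqle, Fdft1 and Insig1, 1 point per library, VAT in red and left of spleen in blue, with group means as bars and the mid light times shaded. In the shaded times, VAT libraries of Cyp51 lie in the lower part of their range (93.7 to 135 CPM) and spleen libraries in the upper part of theirs (75.6 to 122 CPM), while spleen libraries of Fdft1 (13.6 to 36.4 CPM) lie within the range of the other times at all but the lowest point.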

How the data were processed

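Counts per gene and library were used as the authors deposited them: whole read counts, not normalized, in 1 table of 35 libraries and 55011 gene symbols. Per the labels' protocols, each library was made from 1000 sorted cells with oligo-dT priming and limited PCR and read at 25 nt from both ends. Per the submitters' processing notes, STAR 2.7.3a, featureCounts and mm10 were used. Strand and multimapping settings are not stated, so genes with antisense partners or near-identical copies are uncertain. Groups held 3 libraries each, VAT at ZT20 only 2.

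Tests were fitted with edgeR 4.0.16 (R 4.3.3; limma 3.58.1): TMM factors, its default filter on low counts, robust quasi-likelihood test, Benjamini-Hochberg over all genes tested. The tissue difference used the 12 mid light libraries with time as a covariate, and the departure all 35 with 1 mean per group. Intervals for genes with 1 to 3 counts are exact at 95%, and bounds use 3 counts. Alternatives were other scalings, DESeq2 1.42.0, no filter, a length slope, blocks, single times and leaving out each library. Scripts were tested on simulated data. Coordinates are GENCODE M21 on GRCm38, which matched 52936 symbols, and promoters are RefSeq.

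Members and lists were chosen with earlier results of these data known. Named genes are the 10 highest and 10 lowest called tissue differences without overlap and at least 10 CPM in the higher tissue. To these were added the 10 lowest p of the departure (none being called) and the 5 lowest p between ZT8 and ZT4. Up to 4 called genes from each of the 12 stress lists and 8 setting lists, and sort markers, complete them. Other members were named after their values were seen. A few list members are not reported here by name.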

Additional observations from a re-analysis of the deposited data

Results flagged for a closer look

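Over 126 of the genes followed here, the 6 mid light libraries of each tissue were searched for 1 library far from the other 5 (gap over range above Dixon's 95% value of 0.625 for 6 libraries). Of 252 groups 25 (9.92%) had such a library. Dixon's value implies about 1 in 20 by chance only for normally spread values. These levels pool ZT4 and ZT8, and some genes are at 0 in all libraries but 1. The share therefore cannot be set against 1 in 20. VAT ZT8 replicate C and spleen ZT4 replicate B had 4 each, spleen ZT8 replicate B had 5, VAT ZT4 replicate D had 3, and the other libraries 0 to 2.

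Among stress genes of VAT, Dnajb1 was at 269 CPM in ZT4 replicate D (202 to 210 CPM in the others), Dnajb9 at 138 CPM in ZT8 replicate D (166 to 183), Egr2 at 8.21 CPM (21.4 to 25.5) and Junb at 17172 CPM (18641 to 19500) in ZT8 replicate C, Ndrg1 at 157 CPM in ZT4 replicate C (269 to 299) and Phgdh at 56.5 CPM in ZT4 replicate B (33.7 to 39.2). Among stress genes of spleen, Junb was at 394 CPM in ZT8 replicate B (258 to 282), Hspa1a at 0.848 CPM there (0 in the others), Hspa1b at 0.398 CPM (0 in the others) and Cxcl2 at 1.99 CPM (0 to 0.173) in ZT8 replicate C. The last 3 are close to 0 in either case.

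Among the other genes of VAT, Rtp4 was at 4.51 CPM and Gm28942 at 0.250 CPM in ZT4 replicate D, Jcad at 39.4 CPM (28.1 to 31.0) and Gm14125 at 1.42 CPM in ZT8 replicate C, Scd2 at 19.6 CPM in ZT8 replicate B, Ifit3 at 1.76 CPM in ZT8 replicate D and Ighd at 0.494 CPM in ZT4 replicate C. In spleen, ZT4 replicate B was high for Foxp3 at 564 CPM (431 to 476), Izumo1r at 787 CPM (571 to 631) and Ifit1 at 95.2 CPM (37.3 to 56.7) and low for Slc28a2b at 80.7 CPM (132 to 149). ZT8 replicate B was high for Msmo1 at 129 CPM (72.5 to 87.3) and AA467197 at 0.424 CPM and low for Hsd17b7 at 5.51 CPM (9.96 to 12.3), and ZT8 replicate D was high for Kcna4 at 0.830 CPM.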

How the results depend on the processing

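Of the 97 single genes followed in the tissue difference, each kept its direction and call with DESeq2, with DESeq2's size factors, with no filter, with all 35 libraries fitted and with either block. With library totals Rbm3 (-0.056) and Cd4 (-0.025) turned sign, Srsf2 and Ndufa1 lost their call, and the counts were 2051 higher and 5733 lower. ZT4 alone called 4000 genes (1879 lower) and ZT8 alone 2059 lower. Osgin1, Rbm3 and Cd4 lost their call at ZT4 alone, and Cxcl1, Rbm3, Cox6a1, Ndufa1 and Cox5b at ZT8 alone. Leaving out each library gave 5876 to 6208 calls (3016 to 3159 higher, 2860 to 3108 lower), and 0 to 12 for ZT8 minus ZT4 (0 to 2 higher, 0 to 11 lower), with 12 without VAT ZT8 replicate D.

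The departure had 6 calls with DESeq2 (2 higher, 4 lower), 31 with no filter (11 and 20 of 47525 tested), 2 with the length slope (both lower, Cyp51 among them), 1 against ZT16 and ZT20 only (1 lower, Cyp51) and 0 to 2 when each library was left out (0 to 1 higher, 0 to 2 lower). Mid light against other times in VAT had 12 calls with library totals (10 higher), 7 with the length slope (2 higher, 5 lower), 2 higher and 1 lower without ZT20, and 0 to 15 when each library was left out (0 to 7 higher, 0 to 11 lower). The same comparison in spleen had 35 lower calls with the length slope, 80 calls without ZT20 (57 higher, 23 lower) and 82 to 480 when each library was left out (61 to 258 higher, 19 to 222 lower). The cause was not tested.

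Same-letter libraries of the 2 tissues correlated at -0.08 to 0.19 in mid light (2 of 6 over 0.1), so the letters were not taken to pair them. With the letter as a replicate block 6142 genes were called, with the letter within time 6097, and the departure had 0 calls under both. Genes at a few reads per library are limited by depth.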
